A study of Mus musculus with 18 samples.

Results

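The genes of the cytotoxic granule were followed across the type 1 lymphocytes of livers bearing colorectal metastases. They were 10 genes of the 54309 in the lymphocyte table, chosen by symbol: 7 granzymes (*Gzma*, *Gzmb*, *Gzmc*, *Gzmd*, *Gzmf*, *Gzmk* and *Gzmm*), perforin (*Prf1*), and the granule-associated genes *Nkg7* and *Ctsw*. Of the 10, 8 passed the filter on low counts and were tested among 13594 genes, and *Gzmd* and *Gzmf* did not pass. *Gzmk* passed through NK libraries alone, since every MFL ILC1 library held 0 counts of it. *Gzmm* passed chiefly through NK libraries, with 2 to 11 counts in MFL ILC1.

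Livers came from female C57BL/6J mice aged 8 to 10 weeks at surgery, which received MC38 cells, a mouse colon adenocarcinoma line, in the spleen 20 days earlier. Innate lymphocytes (lineage-negative, CD45+ and NKp46+) were sorted from pools of 6 to 8 samples of metastasis-free liver tissue (MFL) or liver metastases (LM) of these mice. The 4 populations, with 3 RNA-seq libraries each, were MFL NK cells (CD49a-CD49b+), LM CD49a- NK cells (CD49a-CD49b+), LM CD49a+ NK cells (CD49a+CD49b+) and MFL ILC1 (CD49a+CD49b-). The sample titles call the LM CD49a+ NK libraries ILC1, whereas their population and cell type labels name CD49a+CD49b+ NK cells, and the latter were followed. All groups came from tumor-bearing mice, so no level in healthy liver was measured in these libraries. LM was digested with Liberase and DNase while MFL was smashed and filtered, so site and dissociation cannot be told apart.

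Cytotoxic granules are secretory lysosomes that NK cells and cytotoxic T cells release onto a bound target. Perforin forms pores through which granzymes, a family of serine proteases that differ in the residue they cleave after, reach the cytosol of the target. Granzyme B cleaves after aspartate and activates caspases, granzyme A cleaves after basic residues, and the substrates of granzyme C and of its close relatives are less well defined. In the mouse, *Gzmb* and the *Gzmc* group lie in 1 cluster on chromosome 14 together with mast cell protease genes, *Gzma* and *Gzmk* lie on chromosome 13, and *Gzmm* and *Prf1* on chromosome 10.

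The counts could be split between members only where sequence was shared, so the relation between the cluster genes was examined first. Promoter windows of 250 bases before and 50 after the annotated start of the main transcript were read from GRCm39 on the strand of each gene, in the order chr14:56499668-56499967 (*Gzmb*, minus strand), chr14:56472064-56472363 (*Gzmc*, minus), chr14:56370016-56370315 (*Gzmd*, minus), chr14:56448825-56449124 (*Gzmf*, minus) and chr10:61133296-61133595 (*Prf1*, plus). They are shown because *Gzmc*, *Gzmd* and *Gzmf* are close copies with very unequal levels, while *Gzmb* and *Prf1* are the members in which LM CD49a+ NK cells and MFL ILC1 were called different, in opposite directions. Capitals mark the RUNX core TGTGGT and the T-box motif GGTGTG, on either strand.
Gzmb: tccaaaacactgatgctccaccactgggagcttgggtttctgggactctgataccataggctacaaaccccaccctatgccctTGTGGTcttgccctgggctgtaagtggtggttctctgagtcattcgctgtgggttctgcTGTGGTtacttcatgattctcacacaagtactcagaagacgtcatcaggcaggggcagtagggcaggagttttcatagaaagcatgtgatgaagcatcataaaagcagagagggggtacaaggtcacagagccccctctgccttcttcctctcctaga
Gzmc: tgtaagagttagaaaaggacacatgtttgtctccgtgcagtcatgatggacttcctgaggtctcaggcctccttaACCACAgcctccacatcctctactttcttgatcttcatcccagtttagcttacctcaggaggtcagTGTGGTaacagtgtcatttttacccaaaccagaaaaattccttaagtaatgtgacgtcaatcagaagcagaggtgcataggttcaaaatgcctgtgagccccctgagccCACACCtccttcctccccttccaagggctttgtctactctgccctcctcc
Gzmd: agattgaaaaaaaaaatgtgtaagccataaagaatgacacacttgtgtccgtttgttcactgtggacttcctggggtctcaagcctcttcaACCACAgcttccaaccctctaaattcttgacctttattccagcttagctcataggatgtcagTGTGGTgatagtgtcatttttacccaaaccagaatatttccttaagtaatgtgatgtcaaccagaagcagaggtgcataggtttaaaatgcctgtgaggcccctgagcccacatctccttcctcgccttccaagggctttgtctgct
Gzmf: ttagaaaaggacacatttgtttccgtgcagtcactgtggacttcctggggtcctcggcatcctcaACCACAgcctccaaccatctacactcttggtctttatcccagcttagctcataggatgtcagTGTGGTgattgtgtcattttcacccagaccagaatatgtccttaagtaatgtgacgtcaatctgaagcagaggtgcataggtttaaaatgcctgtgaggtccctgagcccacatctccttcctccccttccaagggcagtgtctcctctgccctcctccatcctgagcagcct
Prf1: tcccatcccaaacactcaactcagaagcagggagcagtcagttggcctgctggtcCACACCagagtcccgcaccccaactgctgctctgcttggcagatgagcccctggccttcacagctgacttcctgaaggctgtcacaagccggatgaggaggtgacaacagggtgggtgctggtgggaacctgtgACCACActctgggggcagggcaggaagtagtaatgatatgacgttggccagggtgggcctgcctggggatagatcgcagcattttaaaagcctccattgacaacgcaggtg

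The windows of *Gzmc* and *Gzmf* were identical at 79.6% of aligned positions, those of *Gzmc* and *Gzmd* at 75.8% and those of *Gzmd* and *Gzmf* at 73.3%, against 45.1% to 49.4% for *Gzmb* and each of the 3. *Gzmc*, *Gzmd* and *Gzmf* each held 2 RUNX cores, as did *Gzmb*, and the match positions in *Gzmc* were -175 and -109 from the start. The RUNX core was found in 8 of the 10 members and in 15.3% of all 21770 promoters, and neither *Gzmk* nor *Ctsw* held it. The T-box motif was found in *Gzmc*, *Gzmk*, *Prf1* and *Nkg7*, and in 19.5% of all promoters. The AP-1 site TGANTCA was found in *Gzmb* alone of the 10 (7.14% of all promoters), the STAT palindrome TTCNNNGAA in *Gzmb*, *Gzmm* and *Nkg7* (8.81%), and the E-box CANNTG in 9 of the 10 (70.6%). These are matches of letters within the windows and do not show binding. The annotated spans of *Gzmc* and *Gzmk* reach further upstream than their windows, and other starts there were not searched.

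The transcripts differed enough to be told apart in most stretches. Of the 31-base words of the transcript, the word length of the index used for counting, 85.9% occurred in no other gene for *Gzmc*, 60.6% for *Gzmd* and 76.3% for *Gzmf*, against 98.6% for *Gzmb*, 99.5% for *Prf1* and 100% for *Gzma*, *Gzmk*, *Gzmm*, *Nkg7* and *Ctsw*. The words were taken from a later GENCODE release than the one used for counting. Counts of *Gzmd* and *Gzmf* are therefore less certain than those of the other members. On the opposite strand *Gzmk* overlaps *Esm1* and *Ctsw* overlaps *Fibp*, and the library kit keeps strand.

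Libraries held 8795721 to 14386834 estimated counts, and LM CD49a- NK replicates 1 and 2 detected the fewest genes, at 9885 and 9608 with at least 10 counts against 10511 to 13218 in the other 10 libraries. Of the counts, 3.68% to 15.2% fell on mitochondrial, ribosomal RNA and small RNA genes. Levels are given as CPM, counts scaled by TMM to a common library size. *Ncr1*, which encodes the sorted marker NKp46, was at 866 to 1076 CPM in MFL NK cells, 611 to 790 for LM CD49a- NK cells, 495 to 752 for LM CD49a+ NK cells and 894 to 1043 in MFL ILC1. *Itga1*, which encodes CD49a, was at 105 to 156 CPM for LM CD49a+ NK cells and 646 to 680 in MFL ILC1 against 5.83 to 20.1 in the CD49a- groups. *Itga2*, which encodes CD49b, was at 299 to 376 CPM in MFL NK cells, 241 to 333 for LM CD49a- NK cells, 65.7 to 219 for LM CD49a+ NK cells and 25.3 to 54.2 in MFL ILC1. Markers of other cell types were summed as lists. The T cell list (10 genes) summed to 95.9 to 173 CPM in MFL NK cells, 104 to 228 for LM CD49a- NK cells, 212 to 258 for LM CD49a+ NK cells and 621 to 1035 in MFL ILC1. *Cd3g* took 224 to 668 CPM of the MFL ILC1 sum, *Trbc1* 184 to 254 and *Trbc2* 87.1 to 118, while *Cd3e* did not exceed 0.366 CPM there and 2.97 CPM in any library. *Cd4* (1.99 to 5.09 CPM) and *Cd8a* (3.29 to 6.28 CPM) were low in MFL ILC1 and did not exceed 0.236 CPM elsewhere. Both passed the filter on low counts through MFL ILC1 alone, so their direction is not separate support. All 7 tested genes of the list, these included, had log2 fold changes above 0 in MFL ILC1 against MFL NK cells, where the median of all genes was 0.01. Of these, edgeR called *Cd3g* (6.24, adjusted p = 0.000129) and *Trbc2* (2.12, adjusted p = 0.00564). The B cell list (7 genes, nearly all from *Ighm*) summed to at most 101 CPM in libraries without CD49a and to 117 to 184 CPM in those with it, and the tumor epithelium list (5 genes) to at most 4.41 and to 23.8 to 95.2 CPM. Of the latter list, *Cdh1* was at 14.3 to 51.5 CPM for LM CD49a+ NK cells and 46.0 to 74.7 in MFL ILC1 (edgeR adjusted p = 0.00710 and 0.000566 against MFL NK cells) and *Epcam* at 0 to 10.5 and 12.4 to 20.5 CPM, while *Krt8*, *Krt18* and *Krt19* did not exceed 0.0732 CPM in these groups. *Cdh1* passed the filter chiefly through the CD49a+ groups, as this whole list summed to at most 4.41 CPM in the CD49a- libraries. Its adjusted p-values are thus not separate support. The macrophage list (10 genes) summed to 142 to 281 CPM in MFL ILC1, 373 to 598 for LM CD49a+ NK cells and 207 to 619 in the other groups. Most of these sums came from *Ccr2*, at 133 to 225 CPM in MFL ILC1 and 366 to 564 for LM CD49a+ NK cells. *Lyz2* and *Csf1r* reached 85.2 and 15.9 CPM in MFL ILC1, and *Cd68* reached 24.7 CPM for LM CD49a- NK cells. The hepatocyte list (6 genes) summed to 103 to 120 CPM in MFL ILC1, 10.6 to 34.3 for LM CD49a+ NK cells and 18.6 to 192 in the other groups. The erythroid list (5 genes) summed to 82.3 to 907 CPM and the neutrophil list (7 genes) to at most 2.29. The plasmacytoid dendritic cell list (6 genes, nearly all from *Tcf4* and *Bst2*) summed to 37.4 to 111 CPM. The part of these lists in the values below was not tested.

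Together the 10 genes took 0.355% to 0.732% of all counts in a library. The share was 0.559% ± 0.161 (SD, n = 3) in MFL NK cells, 0.514% ± 0.0968 in LM CD49a- NK cells, 0.368% ± 0.0215 in LM CD49a+ NK cells and 0.494% ± 0.0917 in MFL ILC1. All 3 libraries of LM CD49a+ NK cells lay below every library of the other groups, from 0.355% to 0.393% against 0.394% or more, with the narrowest gap to MFL ILC1 replicate 1. These are bulk samples, in which fewer cells that express a gene and less RNA of it per cell cannot be told apart.

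**Figure D1:**
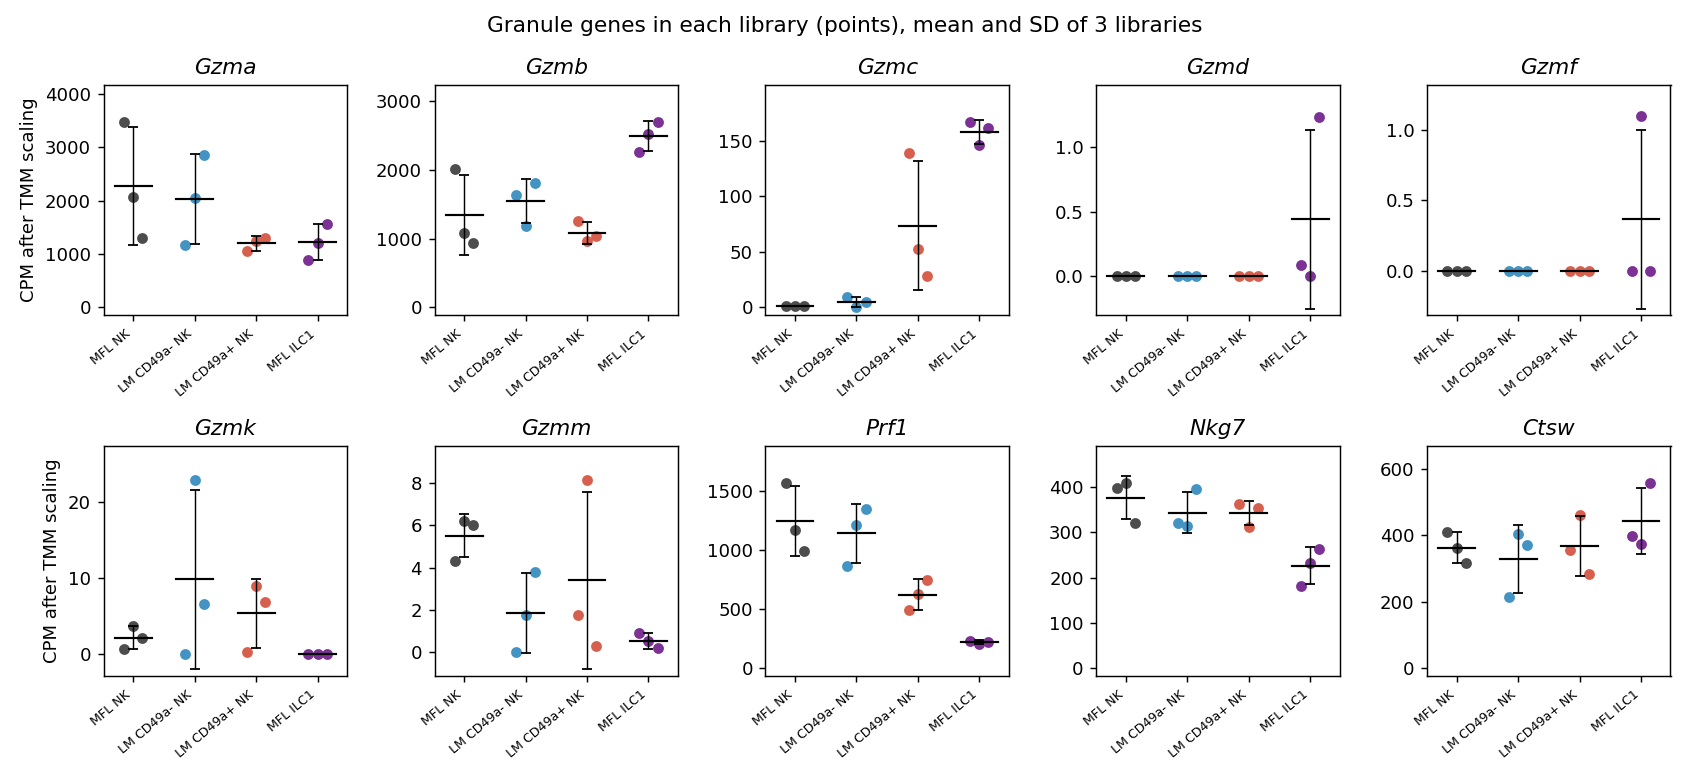
Level of each of the 10 genes in the 12 libraries, in CPM (vertical axes, linear and set per gene) by group, with the mean (bar) and SD of 3 libraries. *Gzmc* is near 1 CPM in MFL NK cells and from 146 to 167 CPM in MFL ILC1, *Prf1* falls from MFL NK cells to MFL ILC1, and *Gzmd* and *Gzmf* are at 0 outside MFL ILC1.

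On the scale of CPM per kilobase of transcript, which allows levels of different genes to be compared, *Gzma* stood first in MFL NK cells at 2560 ± 1241 (SD, n = 3), followed by *Gzmb* at 937 ± 406. *Prf1* came next at 490 ± 116, then *Nkg7* at 426 ± 54.2 and *Ctsw* at 292 ± 37.8. The ranges of the neighbors *Prf1* and *Nkg7* overlapped, and *Gzmm*, *Gzmk* and *Gzmc* stood at 4.28, 2.05 and 1.11 CPM per kilobase, far below. In LM CD49a- NK cells the same 5 genes led in the same order.

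The order differed in MFL ILC1. There *Gzmb* was first at 1737 ± 155 CPM per kilobase and *Gzma* second at 1369 ± 378, followed by *Ctsw* at 356 ± 80.7 and *Nkg7* at 256 ± 46.4. *Gzmc* followed at 169 ± 11.4 CPM per kilobase, above *Prf1* at 86.5 ± 6.03, and the ranges of the neighbors *Gzmb* and *Gzma* overlapped. In LM CD49a+ NK cells *Gzma* (1346 ± 149) and *Gzmb* (758 ± 110) led as in the other NK cells, *Nkg7* (388 ± 29.6) and *Ctsw* (295 ± 72.9) preceded *Prf1* (245 ± 50.6), and *Gzmc* stood at 78.7 ± 62.1 CPM per kilobase. The ranges of *Ctsw* there overlapped those of both *Nkg7* and *Prf1*. With the union of all exons as length, *Prf1* (235) preceded *Ctsw* (194) in LM CD49a+ NK cells, and *Nkg7* (246) preceded *Ctsw* (234) in MFL ILC1. *Gzma* (775) then barely preceded *Gzmb* (758) in LM CD49a+ NK cells. It stood below *Gzmb* in LM CD49a+ NK replicate 1 (680 against 881) and LM CD49a- NK replicate 1 (759 against 1144).

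**Figure D2:**
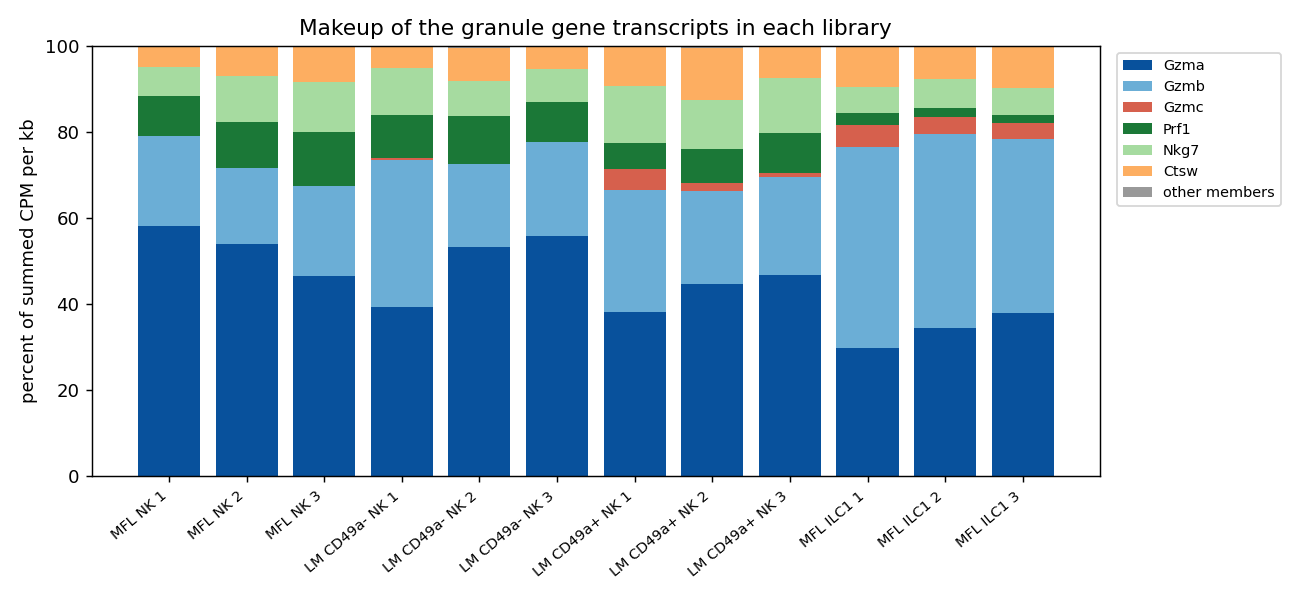
Share of each gene in the summed CPM per kilobase of the 10 genes (vertical axis, percent) in each of the 12 libraries. *Gzmb* takes 40.5% to 46.6% in MFL ILC1 and 17.6% to 34.2% elsewhere, and *Gzmc* takes 0.971% to 4.80% in LM CD49a+ NK cells.

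The balance between members gave a view that does not depend on the total level. The ratio of *Gzma* to *Gzmb* per kilobase was 2.23 to 3.06 in MFL NK cells, 1.15 to 2.77 for LM CD49a- NK cells and 1.34 to 2.07 for LM CD49a+ NK cells. It was 0.638 to 0.935 in MFL ILC1, below every NK library. The union of all exons lengthens *Gzma* but not *Gzmb*, so it lowers this ratio by the same factor in every library and keeps their order. The ratio of *Prf1* to *Gzmb* was 0.441 to 0.607 in MFL NK cells, 0.297 to 0.577 for LM CD49a- NK cells, 0.219 to 0.408 for LM CD49a+ NK cells and 0.0454 to 0.0582 in MFL ILC1. LM CD49a+ NK cells and MFL ILC1 did not overlap in either ratio. Their ratios of *Gzmc* to *Gzmb* did overlap, at 0.0424 to 0.169 and 0.0888 to 0.113.

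*Gzmc* (ENSMUSG00000079186.4, chr14:56468857-56479211), which encodes granzyme C, was the member with the largest called differences. It was at 1.06, 1.03 and 1.03 CPM in MFL NK replicates 1 to 3, at 9.36, 0.222 and 5.20 CPM in LM CD49a- NK cells, at 139, 53.0 and 28.6 CPM in LM CD49a+ NK cells and at 167, 146 and 161 CPM in MFL ILC1. All LM CD49a+ NK libraries exceeded all NK libraries without CD49a and fell below all MFL ILC1 libraries, and replicate 1 lay closest to the latter. In counts, MFL NK libraries held 13 or 14, LM CD49a- NK libraries 2 to 84, LM CD49a+ NK libraries 287 to 1437 and MFL ILC1 libraries 1700 to 1995. The coefficient of variation of *Gzmc* was 0.790 in LM CD49a+ NK cells and 0.0675 in MFL ILC1.

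*Gzmc* was higher in LM CD49a+ NK cells than in MFL NK cells, with a log2 fold change of 6.13 ± 0.86 (SE), a fold of 70.0 (95% interval of the log2 value 4.31 to 7.94, edgeR quasi-likelihood test with Benjamini-Hochberg adjustment, adjusted p = 0.00183). It was the only member called of the 8 tested, where 0.647% of all genes were called at an adjusted p under 0.1 (0.427% higher and 0.221% lower). Against LM CD49a- NK cells of the same site, the log2 fold change was 3.90 ± 0.76, a fold of 14.9 (edgeR adjusted p = 0.0853), and *Gzmc* was again the only member called, beside 0.14% of all genes (0.0662% higher and 0.0736% lower). The call was close to the threshold. Without LM CD49a+ NK replicate 1 the log2 fold change was 3.03 (edgeR adjusted p = 0.290), and without its replicate 2 it was 4.09 (adjusted p = 0.104). With libraries outside the comparison left out it stayed at 3.90 while the call was lost, at an edgeR adjusted p of 0.109 without MFL NK replicate 1 and of 0.138, 0.106 and 0.127 without MFL ILC1 replicates 1, 2 and 3. It was not called by limma-voom (4.14, adjusted p = 0.879). Against MFL NK cells the log2 fold change ranged from 5.27 to 6.51 with single libraries left out, with an adjusted p of at most 0.0195.

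MFL ILC1 held the highest level of *Gzmc*, exceeding MFL NK cells by 7.23 ± 0.90 on the log2 scale, a fold of 150.3 (edgeR adjusted p = 8.58e-05). LM CD49a+ NK cells stood below MFL ILC1 by 1.10 ± 0.68 on the log2 scale, with no overlap between libraries, and this difference was not called by edgeR (adjusted p = 0.539, 95% interval -2.53 to 0.32) but was by limma-voom (-1.32, adjusted p = 0.0276). From MFL NK to LM CD49a- NK cells the log2 fold change of *Gzmc* was 2.23 ± 0.77 (edgeR adjusted p = 0.694), with LM CD49a- NK replicate 2 below and replicates 1 and 3 above all MFL NK libraries. Without LM CD49a- NK replicate 2, which held 2 counts, it was 2.78 with an edgeR adjusted p of 0.0401.

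*Gzmd* (chr14:56367013-56370065) and *Gzmf* (chr14:56442720-56448874), the neighbors of *Gzmc*, were nearly silent. *Gzmd* held 1, 0 and 13 counts and *Gzmf* 0, 15 and 0 counts in MFL ILC1 replicates 1 to 3, and both were at 0 counts in the other 9 libraries. In none of those 9 libraries does a count of 0 allow more than 0.334 CPM, taking 3 counts as the limit, which covers counting error only. The further cluster genes *Gzme*, *Gzmg* and *Gzmn* were at 0 counts in all 12 libraries. Summing the 6 genes of the group, to which shared reads could be assigned, gave 6.13 for LM CD49a+ NK cells against MFL NK cells and 7.24 for MFL ILC1 against MFL NK cells on the log2 scale.

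*Gzmb* (ENSMUSG00000015437.6, chr14:56496295-56499717), which encodes granzyme B, separated MFL ILC1 from LM CD49a+ NK cells. It was at 2012, 1090 and 935 CPM in MFL NK replicates 1 to 3, at 1643, 1188 and 1817 CPM in LM CD49a- NK cells, at 1266, 962 and 1036 CPM in LM CD49a+ NK cells and at 2257, 2526 and 2700 CPM in MFL ILC1. Every MFL ILC1 library exceeded every other library, and the 3 NK groups overlapped. Relative to MFL ILC1, the log2 fold change of LM CD49a+ NK cells was -1.20 ± 0.28 (edgeR adjusted p = 0.0262), and this call was lost without LM CD49a+ NK replicate 3 (adjusted p = 0.101) or MFL ILC1 replicate 3 (adjusted p = 0.105). In that comparison 2 of the 8 tested members were called, *Prf1* being the other, beside 3.58% of all genes (2.29% higher and 1.29% lower). Leaving aside *Gzmk*, libraries did not overlap for 4 of the other 7 (*Prf1* and *Nkg7* higher, *Gzmb* and *Gzmc* lower), beside 23.2%.

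Against MFL NK cells, *Gzmb* in MFL ILC1 gave a log2 fold change of 0.89 ± 0.28, which was not called (edgeR adjusted p = 0.140). It was called by DESeq2 (0.93, adjusted p = 0.0187), by limma-voom (1.26, adjusted p = 3.44e-08), by edgeR without the filter (0.91, adjusted p = 0.00324), without MFL NK replicate 1 (1.30, adjusted p = 0.0148), without LM CD49a- NK replicate 2 (0.89, adjusted p = 0.0825) and with the replicate number as a block (0.95, adjusted p = 0.0763). MFL NK replicate 1 held the highest *Gzma*, *Gzmb* and *Prf1* of its group and 13.4% of its counts in mitochondrial, ribosomal RNA and small RNA genes, against 5.43% and 6.81% in the other 2 libraries, and the part of this share was not tested. Within LM, *Gzmb* gave -0.51 ± 0.28 in CD49a+ against CD49a- NK cells (edgeR adjusted p = 0.483, 95% interval -1.09 to 0.07).

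*Gzma* (ENSMUSG00000023132.9, chr13:113230355-113237524), which encodes granzyme A, varied widely within the CD49a- groups. It was at 3472, 2070 and 1293 CPM in MFL NK replicates 1 to 3, at 1173, 2043 and 2862 CPM in LM CD49a- NK cells, at 1051, 1235 and 1307 CPM in LM CD49a+ NK cells and at 892, 1199 and 1564 CPM in MFL ILC1. No pair of groups was free of overlap. The coefficient of variation was 0.485 for MFL NK and 0.417 for LM CD49a- NK cells, against 0.110 for LM CD49a+ NK cells. *Gzma* was not called by edgeR in any comparison, nor by DESeq2. It was called by limma-voom in MFL ILC1 against MFL NK cells (-0.50, adjusted p = 0.0835), and by edgeR without the filter there (-0.88, adjusted p = 0.00490), in LM CD49a+ NK cells against MFL NK cells (-0.92, adjusted p = 0.00460) and within LM (-0.76, adjusted p = 0.0776). Its log2 fold change was -0.93 ± 0.35 for LM CD49a+ NK cells against MFL NK cells (edgeR adjusted p = 0.401), and -0.49 without MFL NK replicate 1.

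*Prf1* (ENSMUSG00000037202.7, chr10:61133546-61140461), which encodes perforin, was graded across the groups. It was at 1571, 1171 and 994 CPM in MFL NK replicates 1 to 3, at 865, 1214 and 1349 CPM in LM CD49a- NK cells, at 491, 630 and 748 CPM in LM CD49a+ NK cells and at 233, 203 and 224 CPM in MFL ILC1. Every library of LM CD49a+ NK cells lay below both CD49a- groups and above MFL ILC1, whereas MFL NK cells and LM CD49a- NK cells overlapped. In MFL ILC1 it was lower than in MFL NK cells (log2 fold change -2.50 ± 0.25, edgeR adjusted p = 1.29e-05), and LM CD49a+ NK cells were higher than MFL ILC1 by 1.503 ± 0.246 (edgeR adjusted p = 0.00193).

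The *Prf1* differences between LM CD49a+ NK cells and the other NK cells did not pass the threshold. The log2 fold change was -0.999 ± 0.243 against MFL NK cells (edgeR adjusted p = 0.104) and -0.87 ± 0.24 against LM CD49a- NK cells (edgeR adjusted p = 0.280). The former was called by DESeq2 (adjusted p = 0.00775), by limma-voom (0.0225), without the filter on low counts (0.00375) and with any 1 of the LM CD49a- NK libraries left out of the edgeR fit (0.0621 to 0.0766). The latter was called by DESeq2 (adjusted p = 0.0210) and without the filter (0.0345), and not by limma-voom. Without MFL NK replicate 1 the former was -0.80, with an edgeR adjusted p of 0.529.

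Whether the difference that goes with CD49a differed between sites was tested as an interaction, which subtracts the step from MFL NK cells to MFL ILC1 from that between the NK populations of LM. For *Prf1* the interaction was 1.63 ± 0.34 on the log2 scale (edgeR adjusted p = 0.0354), with -0.87 within LM and -2.50 within MFL. *Prf1* was the only member called of 8, beside 1.03% of all genes (0.625% above 0 and 0.405% below). The call was lost without MFL NK replicate 1 (1.43, adjusted p = 0.120), without MFL ILC1 replicate 2 (1.57, adjusted p = 0.116), and without both LM CD49a- NK libraries of low gene detection (1.39, adjusted p = 0.226). The interactions of *Gzmb* (-1.40 ± 0.39, edgeR adjusted p = 0.167) and *Gzmc* (-3.33 ± 1.02, adjusted p = 0.258) were not called by edgeR. DESeq2 called both (-1.45, adjusted p = 0.0113, and -3.40, adjusted p = 0.0510), as did edgeR without the filter (adjusted p = 0.00114 and 5.82e-05), and limma-voom called that of *Gzmb* (-1.87, adjusted p = 0.00245). Without LM CD49a- NK replicate 2 they were -1.56 (adjusted p = 0.0724) and -3.89 (adjusted p = 0.0120), and without MFL NK replicate 1 that of *Gzmb* was -1.81 (adjusted p = 0.0337). The CD49a+ cells of the sites also differ in CD49b, by which they were sorted. They were NK cells in LM and ILC1 in MFL, so the interaction cannot tell site from cell type.

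**Figure D3:**
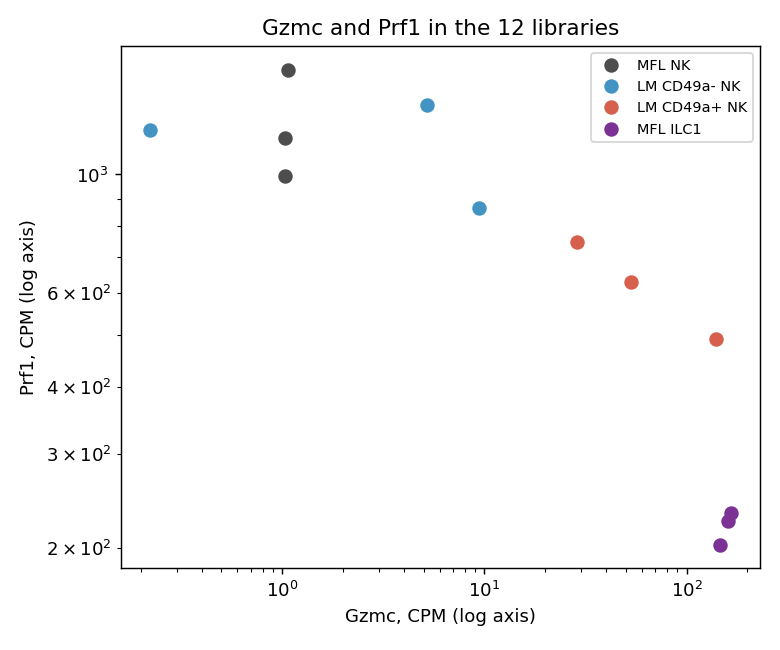
*Prf1* (vertical axis) against *Gzmc* (horizontal axis) in the 12 libraries, both in CPM on log axes, with 1 point per library colored by group. LM CD49a+ NK cells, at 28.6 to 139 CPM of *Gzmc* and 491 to 748 CPM of *Prf1*, lie between the CD49a- NK groups and MFL ILC1.

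Across the 12 libraries, which fall into 4 groups and share their scaling, *Gzmc* and *Prf1* had a Pearson correlation of -0.88 on log2 CPM, and *Prf1* and *Nkg7* of 0.84. The genes most like *Prf1* among 9769 genes of at least 5 CPM were *Cma1* (r = 0.98), which encodes a chymase, *Plek* (0.98), which encodes the protein kinase C substrate pleckstrin, and *Itgam* (0.98), which encodes CD11b. Those most like *Gzmc* were *Serpina3g* (0.96), a serine protease inhibitor gene, *Lilrb4a* (0.94), an inhibitory receptor gene, and *Socs2* (0.93), which encodes a suppressor of cytokine signaling. *Sytl2*, a granule docking gene, was most like *Gzmb* (0.89), and *Bzw1* was most like *Gzma* (0.87). For *Nkg7* it was *Dhrs3* (0.91), for *Ctsw* *Rps19bp1* (0.88), for *Gzmk* *Clip3* (0.94) and for *Gzmm* *Samd3* (0.94). These correlations describe the 12 libraries.

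*Nkg7* (ENSMUSG00000004612.10, chr7:43086497-43087678), whose product is a granule membrane protein needed for degranulation, was at 398, 409 and 321 CPM in MFL NK replicates 1 to 3, at 321, 315 and 395 CPM in LM CD49a- NK cells, at 361, 313 and 353 CPM in LM CD49a+ NK cells and at 182, 232 and 263 CPM in MFL ILC1. MFL ILC1 lay below all NK libraries. The log2 fold change against MFL NK cells was -0.74 ± 0.21 (edgeR adjusted p = 0.0948), close to the threshold, and it exceeded 0.1 with any library of the 2 groups left out (0.140 to 0.443), without LM CD49a+ NK replicates 1 or 2 (0.104 and 0.112), and with the replicate block (0.106). The log2 fold change of LM CD49a+ NK cells against MFL ILC1 was 0.60 ± 0.21, not called by edgeR (adjusted p = 0.190) and called by DESeq2 (0.61, adjusted p = 0.0680). The 3 NK groups overlapped, and the log2 fold change within LM was 0.00 ± 0.21 (95% interval -0.45 to 0.44).

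In MFL ILC1 against MFL NK cells, 3 of the 8 members were thus called, *Gzmc* upward and *Prf1* and *Nkg7* downward, beside 3.06% of all genes (1.38% higher and 1.68% lower). *Gzmk* was admitted by NK libraries alone, and *Gzmm*, at 2 to 11 counts in MFL ILC1, chiefly by NK libraries. Leaving both aside, libraries did not overlap for *Gzmc* and *Gzmb* upward and *Prf1* and *Nkg7* downward, beside 25.3% of all genes. They overlapped for *Gzma* and *Ctsw*. In LM CD49a+ NK cells against MFL NK cells, libraries did not overlap for 2 of the 8 (*Gzmc* and *Prf1*, beside 20.1% of all genes), and the median log2 fold change was -0.22 for the 8 and -0.04 for all genes tested. Within LM it was the same 2, beside 9.82%, with medians of -0.26 and 0.01. The comparisons share the MFL NK, LM CD49a+ NK or MFL ILC1 libraries, so their values are not independent of each other.

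**Figure D4:**
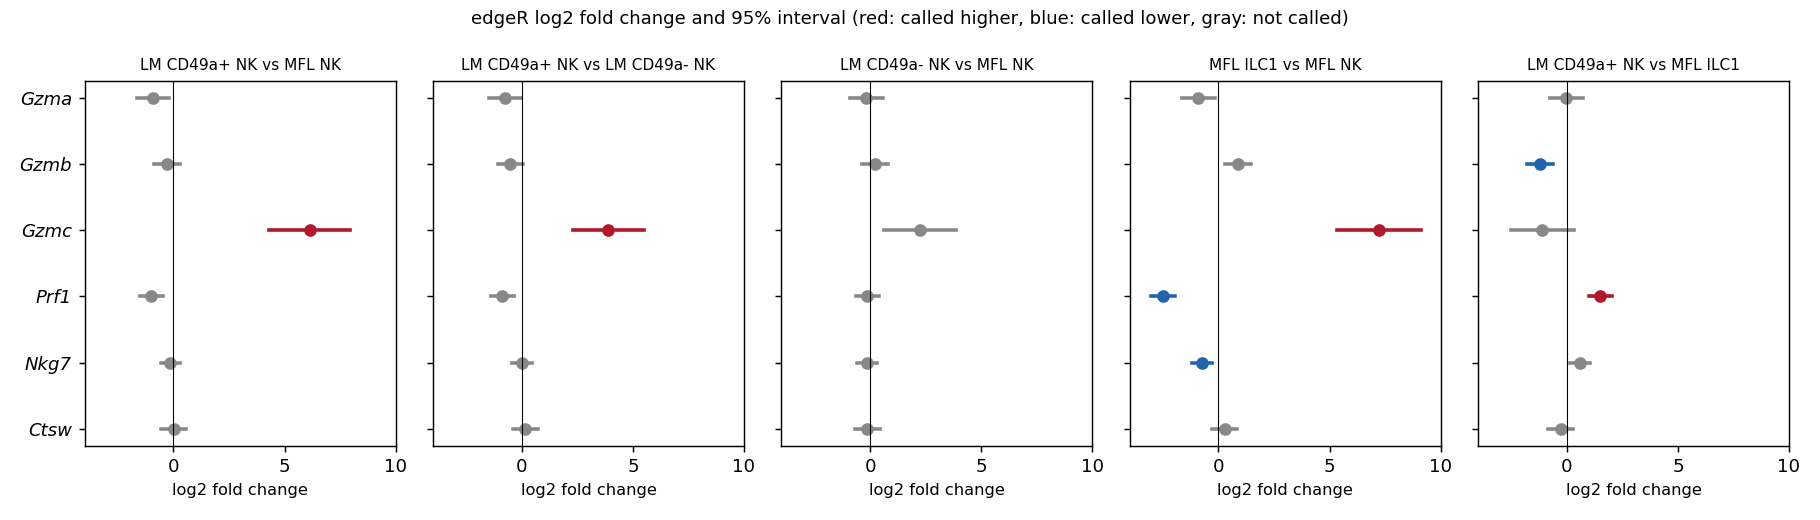
Log2 fold change (horizontal axis) of the 6 most abundant members by edgeR with 95% intervals, for 5 comparisons between groups. *Gzmc* is called higher in 3 of them, and the intervals of the other 5 include 0 in LM CD49a- NK cells against MFL NK cells.

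For LM CD49a- NK cells against MFL NK cells, which carry the same CD49a and CD49b phenotype, edgeR called 0 of the 8 members, beside 0.0736% of all genes (0.0662% higher and 0.00736% lower). *Gzmc* alone had an unadjusted p under 0.05 (edgeR, 0.00975), while 914 of the 13594 genes did. DESeq2 and limma-voom also called 0 of the 8, and over all genes they called 161 and 104. Libraries did not overlap for 1 of the 8, *Gzmm*, beside 16.2% of all genes. The 95% interval of the log2 fold change was -0.63 to 0.38 for *Prf1*, -0.38 to 0.78 for *Gzmb*, -0.90 to 0.56 for *Gzma*, -0.58 to 0.31 for *Nkg7* and -0.70 to 0.42 for *Ctsw*, so larger changes of these genes lay outside the intervals.

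*Ctsw* (ENSMUSG00000024910.6, chr19:5515071-5518535), which encodes cathepsin W, a papain-like protease of cytotoxic lymphocytes, overlapped in every pair of groups. It was at 410, 362 and 316 CPM in MFL NK replicates 1 to 3, at 213, 404 and 370 CPM in LM CD49a- NK cells, at 356, 462 and 282 CPM in LM CD49a+ NK cells and at 396, 374 and 557 CPM in MFL ILC1. The log2 fold change of MFL ILC1 against MFL NK cells was 0.29 ± 0.27 (95% interval -0.27 to 0.85).

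*Gzmk* (ENSMUSG00000042385.15, chr13:113308142-113362442), a neighbor of *Gzma* whose product cleaves after basic residues, was low and uneven. It held 8, 50 and 27 counts in MFL NK replicates 1 to 3, 0, 206 and 82 counts in LM CD49a- NK cells, 2, 114 and 68 counts in LM CD49a+ NK cells and 0 counts in every MFL ILC1 library. Taking 3 counts per library as the floor of MFL ILC1, or 0.253 CPM, the mean was at least 8.33-fold higher in MFL NK cells, 38.6-fold in LM CD49a- NK cells and 20.9-fold in LM CD49a+ NK cells, although LM CD49a- NK replicate 1 and LM CD49a+ NK replicate 1 were themselves under that floor. Because *Gzmk* passed the filter through NK libraries alone, its tests against MFL ILC1 are not given.

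*Gzmm* (ENSMUSG00000054206.3, chr10:79524854-79531095), which encodes granzyme M, a protease that prefers methionine and leucine, was at 4.33, 6.19 and 6.02 CPM in MFL NK replicates 1 to 3. It was at 0, 1.77 and 3.78 CPM in LM CD49a- NK cells, at 1.74, 8.13 and 0.299 CPM in LM CD49a+ NK cells and at 0.934, 0.512 and 0.189 CPM in MFL ILC1. Every MFL NK library exceeded every LM CD49a- NK and MFL ILC1 library. No comparison was called by edgeR, and MFL ILC1 against MFL NK cells gave -3.31 ± 1.99 (adjusted p = 0.909). limma-voom called the latter (-3.91, adjusted p = 0.00156). *Gzmm* held 2 to 11 counts in MFL ILC1 and passed the filter chiefly through NK libraries, so this call is not separate support.

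Other parts of the granule pathway were examined as lists. The shares of all genes called in each comparison, given above, apply to these lists too. Of 16 genes for granule proteases, their inhibitors and the granule matrix, 15 were tested, and edgeR called none in LM CD49a+ NK cells against either NK group. In MFL ILC1 against MFL NK cells 3 were lower and none higher, beside 1.68% and 1.38% of all genes. The 3 were *Serpinb9b* (log2 fold change -6.65 ± 0.89, edgeR adjusted p = 0.000196), *Serpinb9* (-1.96 ± 0.42, adjusted p = 0.0123) and *Gnptab* (-1.71 ± 0.30, adjusted p = 0.00257). *Serpinb9* is the inhibitor of granzyme B that protects the cytotoxic cell, *Serpinb9b* is a related serpin, and *Gnptab* encodes the transferase that tags lysosomal enzymes for delivery to the granule. *Serpinb9b* held 41, 5 and 0 counts in MFL ILC1 replicates 1 to 3 and passed the filter chiefly through NK libraries, so its call is not separate support. *Serpinb9* was at 411 to 585 CPM in MFL NK cells, 357 to 1251 for LM CD49a- NK cells, 319 to 893 for LM CD49a+ NK cells and 109 to 149 in MFL ILC1. The group with the highest *Gzmb* thus had the lowest *Serpinb9* in every library.

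Compared with MFL ILC1, LM CD49a+ NK cells were called higher in 5 of the 15 tested genes of this list and lower in none, beside 2.29% and 1.29% of all genes. The 5 include *Serpinb9b*, whose call is not separate support for the reason given above. The difference was 5.60 ± 0.86 for *Serpinb9b*, 2.04 ± 0.42 for *Serpinb9* and 1.41 ± 0.30 for *Gnptab* on the log2 scale (edgeR adjusted p = 0.00107, 0.0118 and 0.0141). The other two, named after their values were seen, were the serpin gene *Serpinb6b* (1.40, adjusted p = 0.0667) and the lysosomal membrane gene *Lamp1* (1.27, adjusted p = 0.0848). The interaction was called for *Serpinb9b* (5.59 ± 1.06, edgeR adjusted p = 0.0180), which passed the filter chiefly through NK libraries. The list medians were -0.05 for LM CD49a+ NK cells against MFL ILC1 and 0.14 for MFL ILC1 against MFL NK cells, against -0.07 and 0.01 for all genes.

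Of 25 genes for granule transport and exocytosis, 23 were tested, and *Lyst*, whose loss enlarges granules and impairs their release, was the only one called. It was higher in LM CD49a+ NK cells (1.36 ± 0.26, edgeR adjusted p = 0.0212) and in MFL ILC1 (1.17 ± 0.26, adjusted p = 0.0153) than in MFL NK cells. Its level was 148 to 157 CPM in MFL NK cells, 226 to 487 for LM CD49a- NK cells, 329 to 427 for LM CD49a+ NK cells and 295 to 376 in MFL ILC1, so MFL NK cells lay below every other library. None of the list was called in the other comparisons.

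Among 9 death receptor ligands and secreted effectors, *Tnfsf10*, which encodes TRAIL, and *Xcl1* rose and *Ccl5* fell in LM CD49a+ NK cells relative to MFL NK cells, by log2 values of 2.34 ± 0.42, 2.50 ± 0.47 and -1.41 ± 0.30 (edgeR adjusted p = 0.0182, 0.0212 and 0.0480). None was called within LM. In MFL ILC1, *Tnfsf10* (4.89 ± 0.46, edgeR adjusted p = 6.22e-06) and *Xcl1* (2.69 ± 0.47, adjusted p = 0.00255) were higher than in MFL NK cells, and LM CD49a+ NK cells stayed below MFL ILC1 in *Tnfsf10* (-2.54 ± 0.42, adjusted p = 0.00187). Its interaction was -3.07 ± 0.57 (adjusted p = 0.0165). *Tnfsf10* was at 11.9 to 16.3 CPM in MFL NK cells, 9.20 to 37.7 for LM CD49a- NK cells, 53.7 to 105 for LM CD49a+ NK cells and 368 to 449 in MFL ILC1.

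Of 12 transcription factors of the cytotoxic program, *Zeb2*, which acts in terminal NK cell maturation, fell in LM CD49a+ NK cells relative to MFL NK cells (-2.35 ± 0.31, edgeR adjusted p = 0.00113) and to LM CD49a- NK cells (-1.72 ± 0.30, adjusted p = 0.0402), and no other was called in either comparison. In MFL ILC1 against MFL NK cells, *Zfp683*, which encodes Hobit, was higher (8.82 ± 1.03, edgeR adjusted p = 4.44e-05), and *Zeb2* (-4.70 ± 0.34, 1.93e-07), *Eomes* (-5.04 ± 0.49, 6.63e-06) and *Prdm1* (-2.01 ± 0.39, 0.00559) were lower. LM CD49a+ NK cells exceeded MFL ILC1 in *Eomes* (5.08 ± 0.49, edgeR adjusted p = 1.29e-05) and *Zeb2* (2.35 ± 0.31, adjusted p = 0.000240) and were lower in *Zfp683* (-6.04 ± 0.89, adjusted p = 0.000779). The interaction was called for *Eomes* (4.58 ± 0.61, edgeR adjusted p = 0.00105) and *Zeb2* (2.98 ± 0.42, adjusted p = 0.00191). Both were above 0, as for *Prf1*, beside 0.625% of all genes called in that direction. *Zfp683* held 1, 7 and 11 counts in MFL NK replicates 1 to 3 and 2153 to 3223 in MFL ILC1, so it passed the filter chiefly through MFL ILC1. *Eomes*, at 500 to 902 CPM for LM CD49a+ NK cells and 563 to 721 in MFL NK cells, overlapped between these 2 groups.

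**Figure D5:**
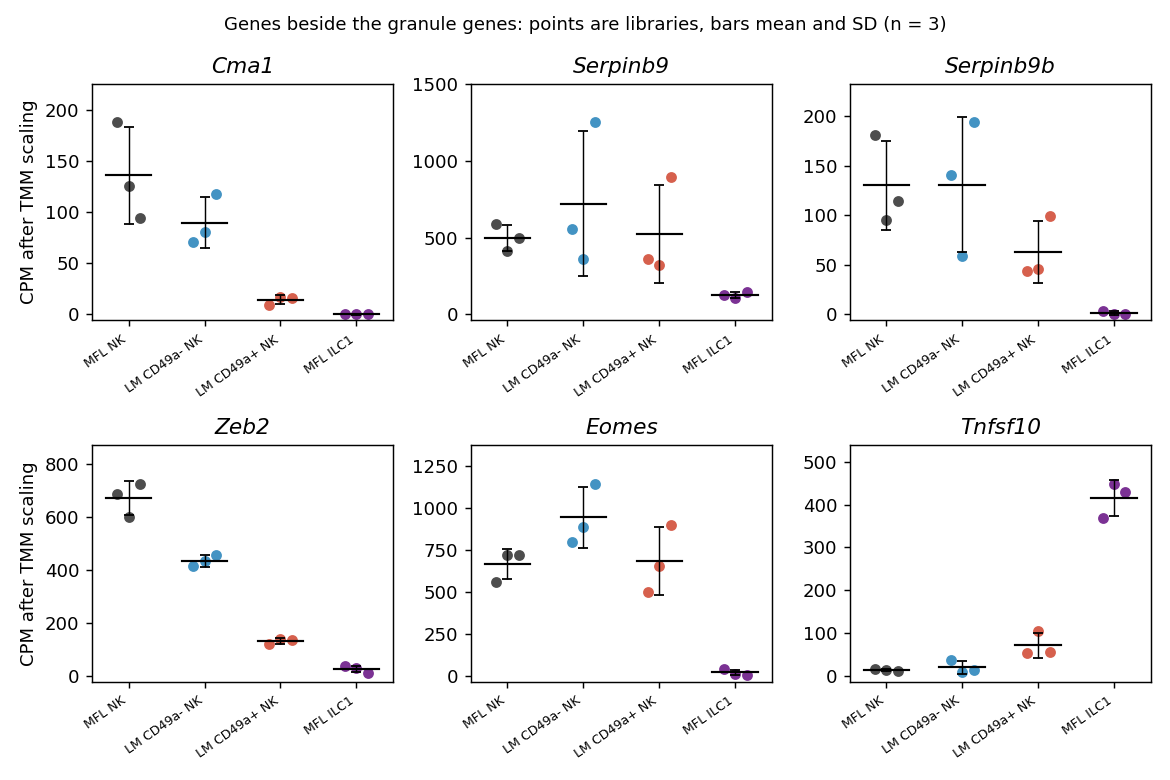
Level in CPM (vertical axes, linear and set per gene) of 6 genes described beside the granule genes, in the 12 libraries by group, with the mean (bar) and SD of 3 libraries. *Zeb2* and *Cma1* fall from MFL NK cells over LM CD49a+ NK cells to MFL ILC1, while *Eomes* is low only in MFL ILC1 among the 4 groups.

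*Cma1* (chr14:56178908-56182132), the gene most like *Prf1*, lies on the same chromosome as the *Gzmb* cluster. It was at 188, 126 and 95 CPM in MFL NK replicates 1 to 3, at 71.3, 80.7 and 118 CPM in LM CD49a- NK cells and at 9.78, 17.5 and 16.4 CPM in LM CD49a+ NK cells, and held 0, 0 and 1 counts in MFL ILC1. Its LM CD49a+ NK libraries lay below both CD49a- groups without overlap (edgeR log2 fold changes -3.23 and -2.63). Of the other 7 genes of the mast cell and basophil list, *Mcpt4*, *Tpsb2* and *Fcer1a* were at 0 CPM in all libraries, *Mcpt8* and *Cpa3* did not exceed 0.284 CPM, and *Ms4a2* and *Gata2* reached 4.68 and 1.79 CPM in LM CD49a+ NK cells and at most 0.295 CPM in the other groups.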

How the data were processed

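RNA-seq of 12 lymphocyte libraries, 3 of each of the 4 sorted populations, was analyzed, and the 6 macrophage libraries of the series were not used here. Per the labels and the study's methods, the authors trimmed the reads (Trim Galore), quantified them with Salmon v1.5.0 on a decoy-aware index (k = 31) of GENCODE transcripts on GRCm39, and used tximport to sum over each gene. Their deposited table gives estimated counts, not normalized, of 54309 genes, which were rounded to whole numbers here. Because Salmon divides reads among similar transcripts, counts of near-identical granzymes are estimates. GENCODE vM39 named 53700 of the 54309 gene IDs and gave positions and lengths.

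Fits were made with edgeR v4.0.16, DESeq2 v1.42.0 and limma v3.58.1 in R v4.3.3. Sequences were read with Biopython v1.88, and plots drawn with matplotlib v3.10.9, in Python v3.11.15. Genes passing edgeR's filterByExpr (13594) were fitted in 1 quasi-likelihood model of the 12 libraries with TMM scaling, and tested by group. P-values were adjusted over all genes tested by the Benjamini-Hochberg method and called under 0.1, the FDR of the study. SE was the log2 fold change divided by the square root of F and is approximate. CPM are TMM-scaled, and CPM per kilobase use the annotated main transcript. Counting error is covered by the 3-count limit only. The scripts were tested on simulated data.

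Members and lists were chosen with earlier results of these data known. Text names all members, of each list up to 3 called genes per direction and comparison with the smallest p, and per member the 3 genes of highest Pearson correlation over the 12 libraries, of which the first is given and all 3 for *Prf1* and *Gzmc*. *Vamp7* has 2 IDs and was left out of its list. The study names 3 independent sorts of pooled samples, but the labels do not tie replicate numbers to them, so p-values measure the spread between these pooled samples. With 3 libraries against 3, an exact permutation test cannot go below p = 0.1, so none is given. Alternatives were DESeq2's size factors, DESeq2, limma-voom with sample weights, no filter, the replicate number as a block, only the groups compared, removal of mitochondrial, ribosomal RNA and small RNA genes, a threshold of 0.05, and each library left out.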

Additional observations from a re-analysis of the deposited data

Results flagged for a closer look

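For *Prf1*, the step from LM CD49a- to LM CD49a+ NK cells differed by edgeR from the step from MFL NK cells to MFL ILC1. The CD49a+ cells were NK cells in LM and ILC1 in MFL, so site and cell type cannot be told apart. The interaction was 1.63 ± 0.34 (SE) on the log2 scale by edgeR's quasi-likelihood test (Benjamini-Hochberg adjusted p = 0.0354), with -0.87 ± 0.24 for LM CD49a+ against LM CD49a- NK cells and -2.50 ± 0.25 for MFL ILC1 against MFL NK cells. *Prf1* was lower in all 3 CD49a+ libraries than in all 3 CD49a- libraries at either site. The call was lost without MFL NK replicate 1 (adjusted p = 0.120), without MFL ILC1 replicate 2 (0.116) and without LM CD49a- NK replicates 1 and 2 (0.226). The interaction of *Gzmb*, not called by edgeR, was called by DESeq2 (-1.45, adjusted p = 0.0113) and limma-voom (-1.87, adjusted p = 0.00245), and that of *Gzmc* by DESeq2 (-3.40, adjusted p = 0.0510).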

How the results depend on the processing

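Deviations from group means correlated at -0.045 to 0.098 (median 0.033) over 18 pairs of libraries with the same replicate number. Over 36 pairs with different numbers they correlated at -0.108 to 0.084 (median -0.011). With 3 libraries per group these values cannot show whether the numbers pair the libraries, so pairing is not known. With the replicate number as a block, *Gzmb* in MFL ILC1 against MFL NK cells was called (0.95, adjusted p = 0.0763), *Nkg7* was not (-0.75, adjusted p = 0.106), and the block changed no other call of a member. Over all genes edgeR called 101, 24, 15, 445, 484 and 127 with it, against 88, 19, 10, 416, 486 and 140 without, for LM CD49a+ NK against MFL NK, LM CD49a+ against LM CD49a- NK, LM CD49a- NK against MFL NK, MFL ILC1 against MFL NK, LM CD49a+ NK against MFL ILC1, and the interaction. In the same order DESeq2 called 365, 543, 161, 667, 1010 and 349 genes, limma-voom 307, 0, 104, 2645, 935 and 180, and edgeR without a filter 371, 200, 158, 599, 774 and 264. With only the groups compared, 94, 3, 3, 1228 and 476 were called in the first 5, and with single libraries left out 26 to 168, 5 to 267, 1 to 110, 268 to 562, 257 to 708 and 75 to 256.

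The number of members called was 1, 1, 0, 3, 2 and 1 in that order. DESeq2 gave 2, 2, 0, 5, 4 and 3, limma-voom 2, 0, 0, 7, 4 and 2, and no filter 3, 3 and 1 in the first 3 and 3 for the interaction. The DESeq2 and limma-voom numbers against MFL ILC1 include *Gzmk*, which was at 0 counts there. That of limma-voom for MFL ILC1 against MFL NK also includes *Gzmm*, at 2 to 11 counts in MFL ILC1. Removing mitochondrial, ribosomal RNA and small RNA genes gave 2 for LM CD49a+ NK against MFL NK, and within LM only the groups compared gave 0 and a threshold of 0.05 gave 0. With single libraries left out the numbers were 1 to 2, 0 to 1, 0 to 1, 2 to 4, 1 to 3 and 0 to 3. Without LM CD49a- NK replicates 1 and 2, chosen after seeing the data, LM CD49a+ NK against MFL NK gave 2. The summed *Gzmc* group was not called within LM by limma-voom (4.14) or with only the groups compared (3.91), and with single libraries left out lay at 3.03 to 4.71. It was called for LM CD49a- NK against MFL NK without a filter (2.25; 1.41 to 2.78 with libraries left out), for LM CD49a+ NK against MFL ILC1 by limma-voom (-1.33), and for the interaction by DESeq2 (-3.41), without a filter (-3.38) and without LM CD49a- NK replicates 1 and 2 (-3.42), with -4.19 to -2.53 for libraries left out. With the union of exons as length, 6 of the 10 members kept their rank in MFL ILC1 and 8 in LM CD49a+ NK cells. The causes were not tested.

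Reversals of direction were all in differences that were not called. For LM CD49a+ NK against MFL NK they were *Gzmk* by limma-voom (-0.020) and *Ctsw* with the replicate block (-0.0016), and with libraries left out *Gzmb* (-0.51 to 0.098) and *Ctsw* (-0.19 to 0.17). Within LM they were *Gzmk* by limma-voom (0.30), *Nkg7* with the block (0.00026) and with only the groups compared (0.015), *Gzmm* (-0.16) and *Ctsw* (-0.018) without LM CD49a- NK replicates 1 and 2, and with libraries left out *Gzmk* (-1.49 to 0.71), *Gzmm* (-0.86 to 1.94), *Nkg7* (-0.065 to 0.11) and *Ctsw* (-0.080 to 0.33). For LM CD49a- NK against MFL NK they were *Gzma* (0.19), *Gzmk* (-0.32) and *Prf1* (0.048) by limma-voom, *Gzma* (0.33), *Prf1* (0.11), *Nkg7* (0.066) and *Ctsw* (0.026) without LM CD49a- NK replicates 1 and 2, and with libraries left out *Gzma* (-0.52 to 0.27), *Gzmb* (-0.0024 to 0.61), *Prf1* (-0.28 to 0.073) and *Ctsw* (-0.32 to 0.091). For LM CD49a+ NK against MFL ILC1, *Gzma* lay at -0.21 to 0.19 with libraries left out. For the interaction *Gzma* was -0.32 by limma-voom and -0.35 without LM CD49a- NK replicates 1 and 2, and with libraries left out *Gzma* lay at -0.29 to 0.50 and *Ctsw* at -0.36 to 0.070. Of the values of single members under an alternative, 891 kept direction and side of the threshold, 42 passed it, 26 fell short of it and 39 reversed. *Gzmd*, *Gzmf*, *Gzmk* and *Gzmm* are limited by depth, with libraries at 0 counts.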
